A study of Mus musculus with 2 samples.

Results

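The 9 genes described here, Six3, Fezf2, Emx1, Emx2, Otx1, Otx2, En1, En2 and Gbx2, encode transcription factors that mark regions of the embryonic brain along its anterior-posterior axis. They were taken by symbol as factors of brain regions, with earlier results of these data known, and are 9 of the 21937 gene features of the matrices. Each symbol belonged to 1 feature. Transcripts of single cells from E11.5 mouse embryos were read with a droplet chemistry that counts the 3′ ends of transcripts by unique molecular identifiers (UMIs). All embryos carried EGFP linked to a DNA barcode, driven by the CAG promoter, which the study describes as weak in liver, red blood and gut lineages, and inserted by the piggyBac transposase, and the study's methods name C57BL/6J eggs and sperm for its fertilizations. Suspensions F0_8 and F0_9 were founder embryos, F1_1 came from 1 F1 embryo, and F1_mix is an artificial mosaic that combined cells of 2 F1 embryos. Each suspension carried its own multiplexing oligo, all were run in the same droplet library, the embryos were minced whole, and the sort was used to remove debris only.

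The tissue of origin of a cell was therefore known only from the cell type that the authors gave it. Of 5678 cells in the 4 suspensions (F0_8 gave 1599, F0_9 1318, F1_1 1310 and F1_mix 1451), 1768 belonged to the 4 neural types: 532 to CNS Neuron, 597 to Neuronal Progenitor, 502 to Neuroectoderm/Glia and 137 to Ependymal Cell. The suspensions shared 0 cell barcodes, and their median depth was 10880 to 13267 gene UMIs per cell. A further 328 barcodes of the matrices had no entry in the table of cells and entered no comparison. The 4 types Endodermal Progenitor, Midgut, Foregut and Hepatocyte were shallow, with medians of 721.5 to 1674 gene UMIs and of 23.0% to 55.9% mitochondrial UMIs, and stand apart below.

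The neural plate is divided early into territories that become forebrain, midbrain and hindbrain, and homeodomain factors set and keep the borders between them. Otx2 is required for forebrain and midbrain and meets Gbx2, a factor of the anterior hindbrain, at the midbrain-hindbrain border, where the isthmic organizer releases Fgf8 and where Pax2, Pax5, En1 and En2 are expressed. Six3 marks the most anterior neural plate and the eye field, Fezf2 the anterior forebrain and later the deep layer neurons of the cortex, and Emx1 and Emx2 the dorsal telencephalon. Hox genes are not expressed anterior to the hindbrain and are read here as a mark of caudal position. Emx2 and En1 also act outside the brain, Emx2 in the urogenital system and the limb girdle, En1 in ventral limb ectoderm and in the dermomyotome.

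The sequences upstream of 4 members are shown. Emx1 and Emx2 were chosen as the pair whose detection was most correlated over neural cells. Otx2 and Gbx2 were chosen as the pair whose territories meet at the midbrain-hindbrain border. RefSeq promoter entries of the build GRCm38.p6 were found for 7 of the 9 members, 10 entries in all. Each line gives the 250 bases before the outermost transcription start in its entry, read 5′ to 3′ on the strand of the gene, and capitals mark the letters TAATTA, the core bound by many homeodomain factors.
Emx1, chr6:85187681-85187930, plus strand: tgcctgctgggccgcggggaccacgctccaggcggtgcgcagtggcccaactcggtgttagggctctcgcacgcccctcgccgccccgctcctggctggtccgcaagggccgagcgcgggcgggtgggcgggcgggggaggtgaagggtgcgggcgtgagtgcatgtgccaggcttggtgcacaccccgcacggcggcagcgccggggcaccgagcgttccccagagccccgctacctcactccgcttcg
Emx2, chr19:59458440-59458689, plus strand: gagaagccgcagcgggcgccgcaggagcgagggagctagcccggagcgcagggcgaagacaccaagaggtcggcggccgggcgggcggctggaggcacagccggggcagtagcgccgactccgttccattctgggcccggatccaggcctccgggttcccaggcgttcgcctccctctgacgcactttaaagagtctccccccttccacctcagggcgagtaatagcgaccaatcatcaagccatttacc
Otx2, chr14:48667645-48667894, minus strand: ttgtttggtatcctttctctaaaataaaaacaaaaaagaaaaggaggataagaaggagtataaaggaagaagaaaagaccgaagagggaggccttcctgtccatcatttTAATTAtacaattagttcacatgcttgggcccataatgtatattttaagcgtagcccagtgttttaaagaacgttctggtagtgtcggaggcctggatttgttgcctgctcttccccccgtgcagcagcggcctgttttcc
Gbx2, chr1:89931177-89931426, minus strand: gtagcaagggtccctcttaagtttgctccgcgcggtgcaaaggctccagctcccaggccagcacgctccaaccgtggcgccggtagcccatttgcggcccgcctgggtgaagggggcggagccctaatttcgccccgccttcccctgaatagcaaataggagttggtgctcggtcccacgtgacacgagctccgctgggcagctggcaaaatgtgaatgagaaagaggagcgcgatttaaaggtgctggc
The windows of Emx1 and Emx2 were 75.6% and 67.2% G and C, with 30 and 24 CpG dinucleotides, that of Gbx2 was 61.6% with 18, and that of Otx2 was 42% with 6. TAATTA, its own reverse complement, was present in 2 of the 10 entries, both of Otx2, and in 4.84% of all 32851 windows of this length. Another Otx2 start (window chr14:48665110-48665359, minus strand) held 3 such matches and the only match among the members to TAATCC, the core named for Otx factors, which was searched on both strands and was present in 6.25% of all windows. A match is a run of letters and says nothing of binding.

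On GRCm38.p6, chromosome 1 holds Gbx2 (ENSMUSG00000034486, chr1:89927962-89931176) and En1 (ENSMUSG00000058665, chr1:120602487-120607991), and chromosome 14 holds Fezf2 (ENSMUSG00000021743, chr14:12338992-12346803) and Otx2 (ENSMUSG00000021848, chr14:48656781-48667644). The others are Six3 (ENSMUSG00000038805, chr17:85613608-85626191), Emx1 (ENSMUSG00000033726, chr6:85187931-85204463), Emx2 (ENSMUSG00000043969, chr19:59458690-59465357), Otx1 (ENSMUSG00000005917, chr11:21994764-22001651) and En2 (ENSMUSG00000039095, chr5:28165696-28172190). A value below counts reads assigned to the whole gene.

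The labels of the 4 neural types were set beside marker genes before the members were read in them. The neuron list (Tubb3, Elavl3, Elavl4, Stmn2, Dcx) was highest in Neuroectoderm/Glia, at 79.5 UMIs per 10000 gene UMIs, and second in CNS Neuron, at 64.8, whereas the list given for Neuroectoderm/Glia itself (Sox2, Nes, Fabp7, Hes5, Slc1a3, Pax6) was at 1.03 there, rank 13 of 16 types, and highest in Neuronal Progenitor, at 27.6. The proneural list (Neurog1, Neurog2, Hes6, Dll1, Dll3) was higher in CNS Neuron (11.9) than in Neuronal Progenitor (4.89). The cells labelled Neuroectoderm/Glia therefore carried neuronal markers, and the cells labelled Neuronal Progenitor those of neural progenitors. Sensory and autonomic neuron markers were highest in CNS Neuron (6.10), so that markers of peripheral neurons were present under this label too. In Ependymal Cell, Ccdc153 and Tmem212 were at 0, Foxj1 was found in 21.2% of cells, and the 2436 UMIs of Ttr came from 7.30% of cells. That list ranged from 0.533 to 32.8 between suspensions, and the neural crest and Schwann precursor list was highest there, at 4.49. The list given for Neuroectoderm/Glia was at 11.1 in Ependymal Cell, rank 2 of 16 types. Sox2 was found in 70.8% of Ependymal Cell cells and Sox10 in 22.6%. The names of the authors are kept below for reference.

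The members were mostly neural, with Emx2 and En1 as exceptions. The 4 neural types made up 31.1% of cells and held 96.1% of the En2 UMIs (514 of 535), 95.1% of Fezf2 (333 of 350), 91.2% of Emx1 (392 of 430), 90.1% of Otx2 (1215 of 1349), 90.0% of Gbx2 (389 of 432), 84.1% of Six3 (1018 of 1210) and 74.7% of Otx1 (290 of 388). The same types held only 48.2% of the En1 UMIs (466 of 966) and 40.4% of the Emx2 UMIs (603 of 1492). Detection was sparse: a UMI was found in 16.9% of neural cells for Otx2, in 11% for Emx2, 10.6% for Six3, 10.2% for En2, 9.95% for Otx1, 9.79% for Gbx2, 8.09% for En1, 7.92% for Fezf2 and 7.35% for Emx1. In Erythroblast, which should lack these factors and was deeper (median 29076 gene UMIs against 10898.5 to 13388 in the neural types), 0% to 1.39% of 144 cells held a UMI of a member. Of 36 pairs of a member and a neural type, 24 had a share whose 95% interval lay above that of Erythroblast. The count was 15 when cells were thinned to 2000 gene UMIs and 16 without F0_8. No such count over all genes is given, so the count is not read as particular to the members. In droplets with 100 to 300 gene UMIs that belong to no suspension and hold free RNA, the members stood at 0.0457 (Fezf2) to 0.252 (Otx2) UMIs per 10000. These levels describe the makeup of the free RNA and not the share of it in a cell, which was not estimated. Otx2 was at 0.00323 to 0.00569 in Myoblast/Cardiomyocyte, Gut Mesenchyme/Amniotic Mesoderm, Mesodermal Progenitor and Chondrocyte.

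**Figure D1:**
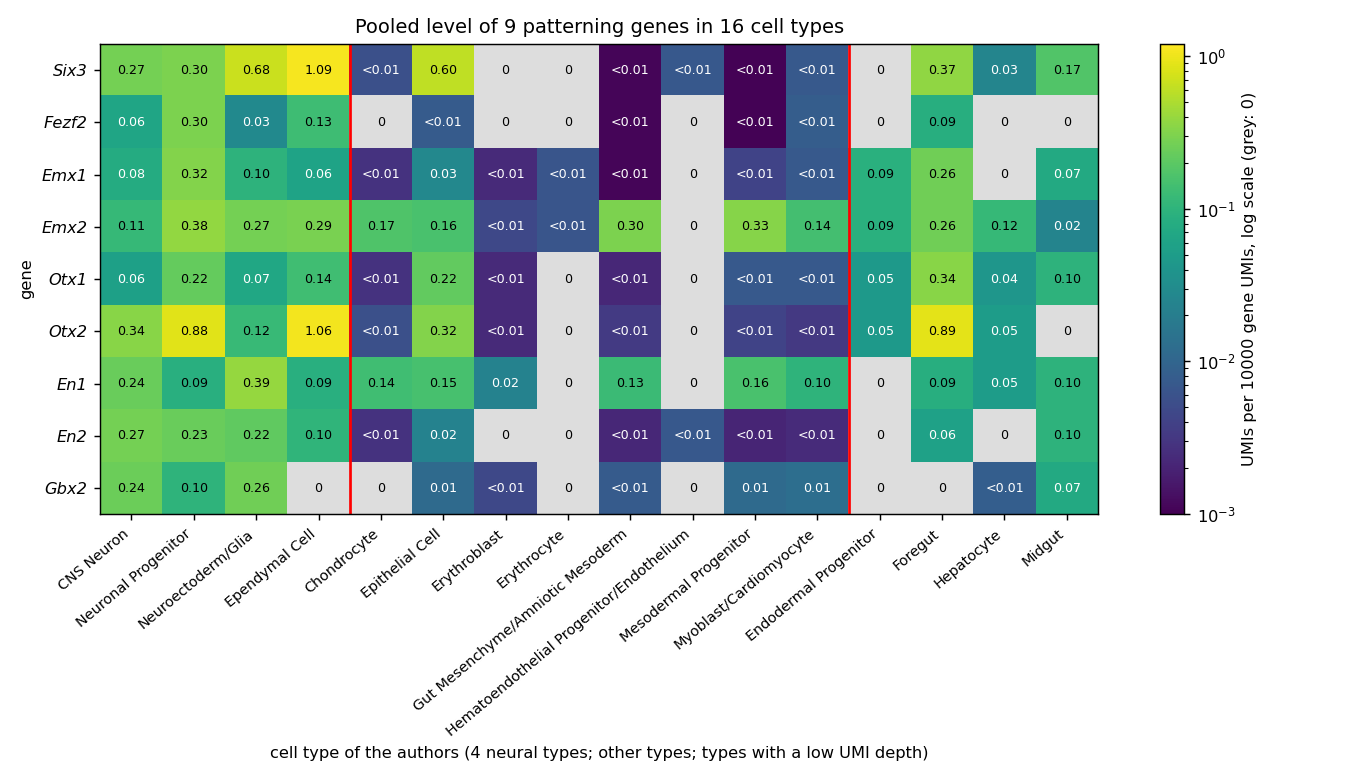
Pooled level of each member (rows) in the 16 cell types of the authors (columns), in UMIs per 10000 gene UMIs on a log color scale, with grey for 0. The first 4 columns are the neural types and the last 4, behind the second line, the shallow types, and outside the neural types Emx2 and En1 are visible in mesodermal columns and Six3, Otx1 and Otx2 in Epithelial Cell.

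Levels are UMIs per 10000 gene UMIs, summed over the cells of a type, and cell types are compared as a description, since the types were clustered on these same cells. Among the 9 types with a median of at least 5000 gene UMIs and at least 20 cells in each suspension, every member was highest in a neural type, and the top type was apart from the second, without overlap of the 4 suspensions, for En1 alone. With a suspension left out the count was 7 to 9, since Otx1 was then highest in Epithelial Cell without F0_8, F1_1 or F1_mix, and Emx2 in Mesodermal Progenitor without F0_8. Over all 13 types with 20 cells in each suspension the count was 8 of 9, because Otx1 was highest in the shallow Foregut, at 0.345 from 12 UMIs. It was 5 when cells under 5000 gene UMIs were left out of all types. No such count over all genes is given, and the members were taken as factors of brain regions.

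Six3, the most anterior factor, was highest in Ependymal Cell, at 1.02 (F0_8), 0.875 (F0_9), 1.68 (F1_1) and 0.820 (F1_mix), with a UMI in 25.5% of 137 cells (95% interval 18.5 to 33.7). In Neuroectoderm/Glia it was at 0.720, 0.915, 0.626 and 0.357 in the same order of suspensions, and in Epithelial Cell at 0.864, 0.838, 0.388 and 0.478. These types overlapped in order. Ependymal Cell and Epithelial Cell lay apart from Neuronal Progenitor, where the suspensions reached 0.369 at most, and Neuroectoderm/Glia did not. The share of cells with Six3 in Neuroectoderm/Glia was only 9.76%, but each of these 49 cells held 8.22 UMIs on average, against 3.64 in the 69 Six3 cells of Neuronal Progenitor. Six3 was thus found in few neurons at a high count per cell. Thinned to 5000 gene UMIs per cell, the share was 22.2% in Ependymal Cell, 8.18% in Neuroectoderm/Glia, 7.81% in Neuronal Progenitor and 4.66% in CNS Neuron.

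**Figure D2:**
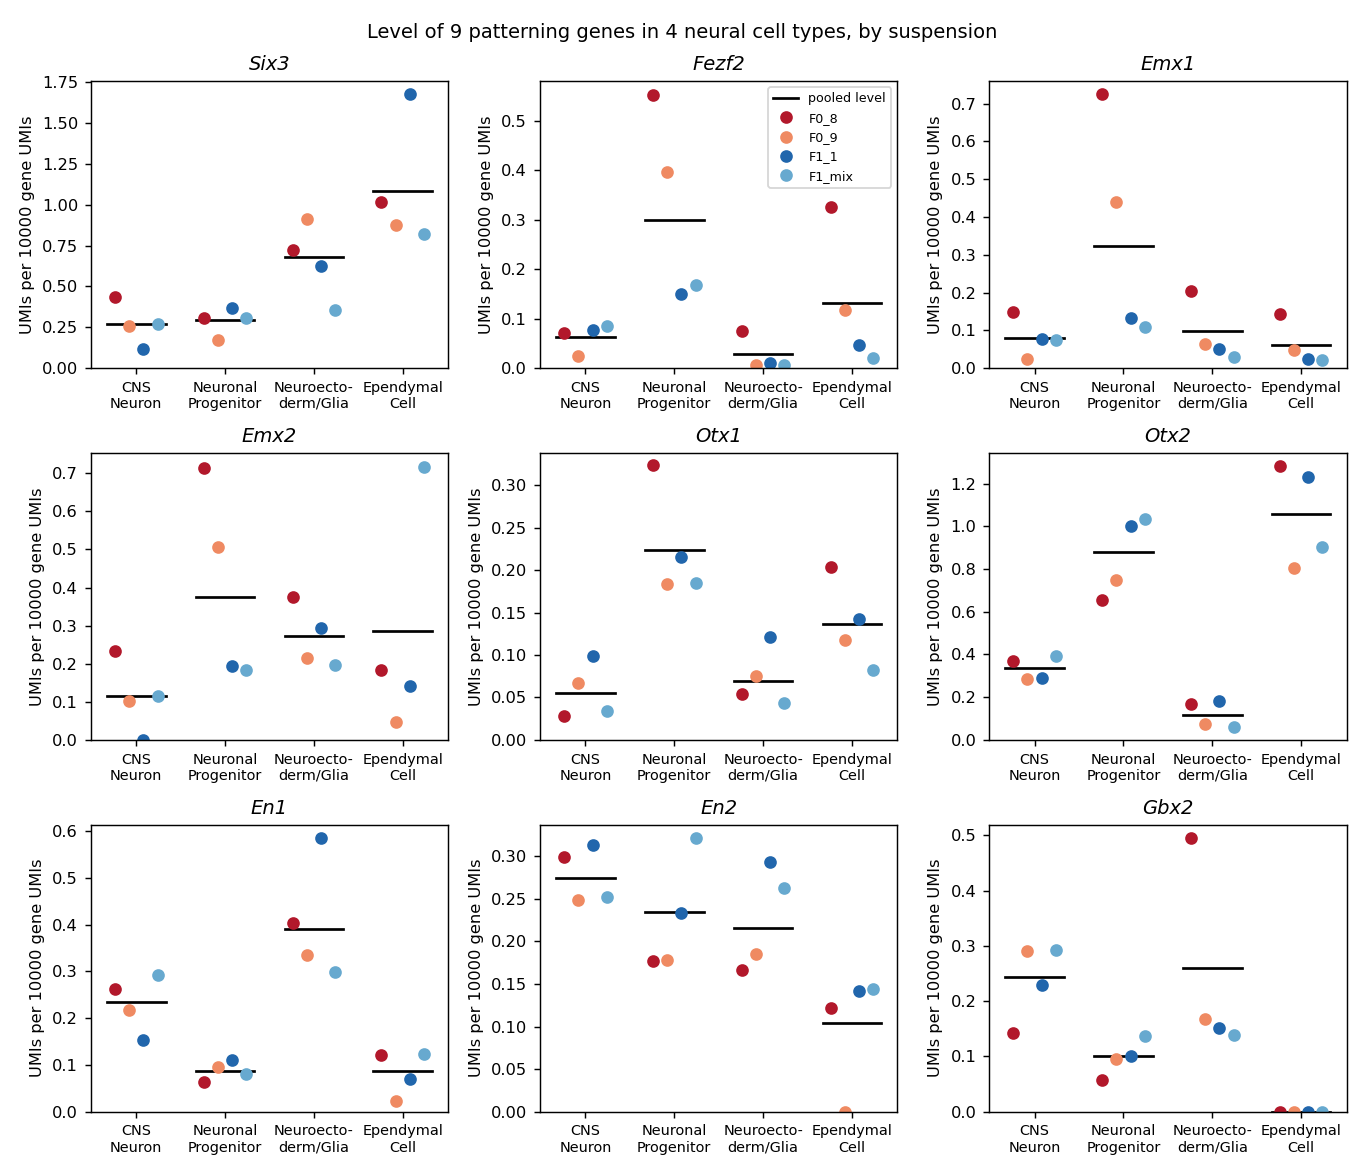
Level of each member in the 4 neural types, in UMIs per 10000 gene UMIs on linear axes that differ between panels. Each point is 1 suspension and the bar is the pooled level, and the founder points (red and orange) of Fezf2, Emx1 and Emx2 stand above the F1 points (blue) in Neuronal Progenitor, while Gbx2 is at 0 in all 4 suspensions of Ependymal Cell.

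Fezf2, Emx1 and Emx2, the factors of the anterior and dorsal forebrain, were each highest in Neuronal Progenitor over the 4 suspensions together, at pooled levels of 0.298, 0.324 and 0.375, with a UMI in 16.8%, 13.6% and 18.1% of its 597 cells. Thinned to 5000 gene UMIs these shares were 11%, 8.83% and 10.9%. In CNS Neuron the levels were 0.0638, 0.0785 and 0.114. The range of the suspensions in Neuronal Progenitor was wide for each of them, from 0.149 to 0.553 for Fezf2, from 0.108 to 0.725 for Emx1 and from 0.185 to 0.714 for Emx2, so that the next type in the order overlapped for all of them. Without F0_8 the pooled level of Emx1 there was 0.207 and still its highest, while that of Emx2 was 0.276 and below Mesodermal Progenitor, at 0.336. Emx2 alone of the 3 was also abundant outside the brain. It was at 0.328 in Mesodermal Progenitor, with 0.301, 0.356, 0.341 and 0.319 in the 4 suspensions and a UMI in 17.3% of 496 cells, and at 0.296 in Gut Mesenchyme/Amniotic Mesoderm, with 0.253, 0.324, 0.193 and 0.401. Both lay within the range of Neuronal Progenitor over all suspensions, and Mesodermal Progenitor was above Neuronal Progenitor (0.193 and 0.185) in both F1 suspensions. Emx1 in those types was at 0.00417 and 0.00110.

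Otx1 and Otx2, factors of forebrain and midbrain, were both high in Neuronal Progenitor. Otx2 was at 0.657 and 0.747 in the founders F0_8 and F0_9 and at 1.0 and 1.04 in F1_1 and F1_mix there, with a UMI in 29.0% of cells, and at 1.28, 0.804, 1.23 and 0.902 in Ependymal Cell, with a UMI in 33.6% of cells. These 2 types overlapped and both lay apart from CNS Neuron, where Otx2 was at 0.284 to 0.395. Thinned to 5000 gene UMIs, the share with Otx2 was 28.1% in Ependymal Cell, 22.4% in Neuronal Progenitor, 8.93% in CNS Neuron and 3.07% in Neuroectoderm/Glia. Otx1 was at 0.323, 0.184, 0.215 and 0.185 in Neuronal Progenitor and overlapped there with Epithelial Cell (0.301, 0.367, 0.155 and 0.0988) and Ependymal Cell (0.0820 to 0.204). Its cells held 1.65 UMIs on average in Neuronal Progenitor, so that most rest on few molecules. In the neurons labelled Neuroectoderm/Glia, Otx1 was at 0.0689 and Otx2 at 0.118.

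En1 and En2, which mark the midbrain and the anterior hindbrain, differed in their order of types. En1 was highest in Neuroectoderm/Glia, at 0.403, 0.336, 0.586 and 0.299 in F0_8, F0_9, F1_1 and F1_mix, and apart from CNS Neuron, at 0.263, 0.218, 0.153 and 0.292, although the lowest value of the first and the highest of the second nearly met. In Neuronal Progenitor En1 was at 0.0626 to 0.110, a range that overlapped with those of Ependymal Cell and Myoblast/Cardiomyocyte. En2 was at 0.299, 0.248, 0.313 and 0.252 in CNS Neuron, and overlapped there with Neuronal Progenitor (0.177, 0.178, 0.233 and 0.321) and Neuroectoderm/Glia (0.167, 0.185, 0.293 and 0.263). En2 levels thus overlapped between progenitors and neurons, and those of En1 did not. Outside the neural types En2 held at most 6 UMIs in any type, those of Epithelial Cell, whereas En1 held 152 in Mesodermal Progenitor, 124 in Myoblast/Cardiomyocyte and 114 in Gut Mesenchyme/Amniotic Mesoderm. En1 was at 0.159 in Mesodermal Progenitor, with 0.135, 0.367, 0.148 and 0.0560 in the suspensions, and at 0.100 in Myoblast/Cardiomyocyte, with 0, 0.0755, 0.0827 and 0.169. In Gut Mesenchyme/Amniotic Mesoderm it was at 0.126.

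Gbx2, the hindbrain factor, was at 0.495 in F0_8 and at 0.168, 0.151 and 0.139 in the others in Neuroectoderm/Glia, so that 1 suspension carried its pooled level of 0.261. Without F0_8 the pooled level there was 0.154. In CNS Neuron it was at 0.142, 0.290, 0.229 and 0.292, apart from Neuronal Progenitor, at 0.0574, 0.0947, 0.101 and 0.136. A UMI was found in 10.7% of cells in Neuronal Progenitor, with 1.33 UMIs in each, and in 8.46% of cells in CNS Neuron, with 3.31 in each. Thinned to 5000 gene UMIs per cell this order turned, with 5.26% in Neuronal Progenitor and 6.60% in CNS Neuron. No cell of Ependymal Cell held Gbx2: 0 of 137 cells, which allows a share of up to 2.19% at the floor of 3 counts and of up to 2.66% at the upper end of the exact 95% interval, while Six3 and Otx2 were at their highest levels there.

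Which members occur in the same cell was described over the 1728 neural cells with at least 5000 gene UMIs, as the phi coefficient of detection, the correlation of 2 yes-or-no values over cells. Cells of a suspension share its embryo and library, so phi is given with no test. At least 1 member was found in 898 cells (52.0%), of which 462 held 1 member, 251 held 2 and 185 held 3 or more. The median depth of cells with a member was 12169.5 gene UMIs and of the 830 cells without one 11922. Of 36 pairs of members, phi was above 0 in every suspension for 14, at or under 0 in every suspension for 15, and mixed for 7.

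**Figure D3:**
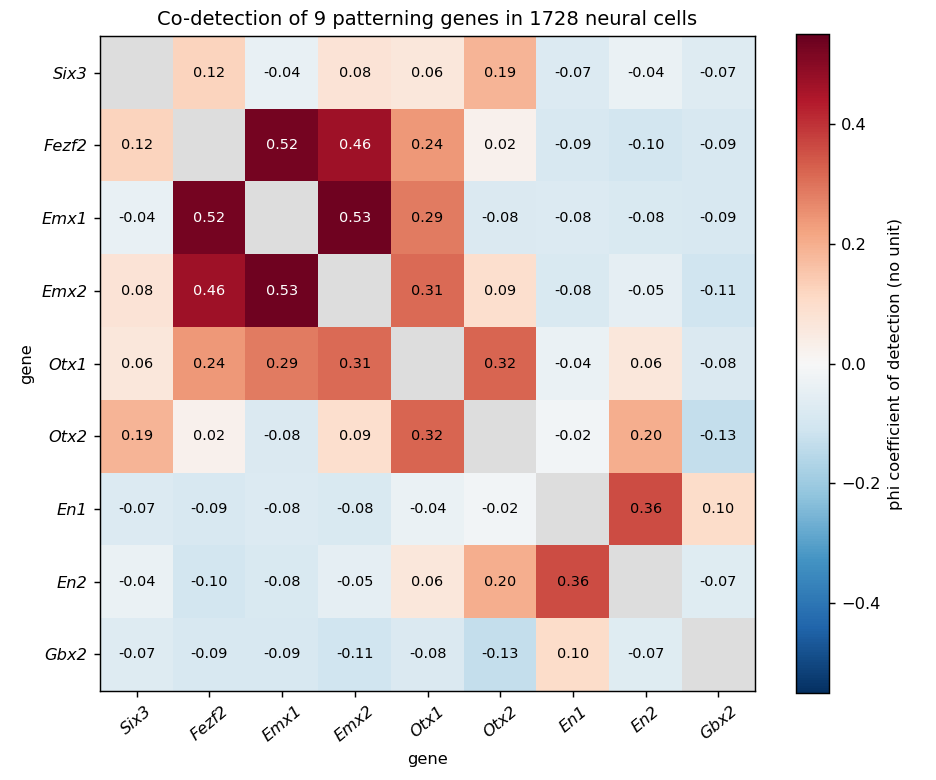
Phi coefficient of detection for each pair of members over 1728 neural cells with at least 5000 gene UMIs, from blue (below 0) to red (above 0). The genes are in order from forebrain to hindbrain, and the red cells form a block of Fezf2, Emx1, Emx2 and Otx1, a pair of Otx1 and Otx2, and a pair of En1 and En2.

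Emx1 and Emx2 had the highest phi of all pairs, 0.53, with 90 cells that held both and 0.39 to 0.58 in the suspensions. Fezf2 followed with Emx1 (0.52, 74 cells) and with Emx2 (0.46, 83 cells). En1 and En2 reached 0.36 (66 cells), and Otx1 and Otx2 0.32 (92 cells). Of the 3 paralog pairs, each was therefore found together in every suspension. Otx1 stood between 2 sets, with 0.31 for Emx2 and 0.29 for Emx1, while Otx2 was at 0.09 for Emx2 and at -0.08 for Emx1. Otx2 and En2, whose territories overlap in the midbrain, shared 70 cells (phi 0.20), and Six3 and Otx2 shared 68 (0.19). Thinned to 5000 gene UMIs per cell, the values were lower, at 0.33 for Emx1 and Emx2, 0.33 for Fezf2 and Emx1 and 0.23 for En1 and En2.

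Gbx2 was rarely in the same cell as Otx2, its neighbor at the border, or as the forebrain members. Otx2 and Gbx2 had a phi of -0.13, with 4 cells of 295 with Otx2 and 170 with Gbx2, and -0.16 to -0.10 in the suspensions. Emx2 and Gbx2 shared 1 cell (-0.11), as did Fezf2 and Gbx2 and Emx1 and Gbx2. Fezf2 was found with En1 in 0 of 136 cells and with En2 in 0 of 136 cells, which allows a share of up to 2.21% at the floor of 3 counts and of up to 2.68% at the upper end of the exact interval. Phi was -0.09 and -0.10 for these pairs, the least that 0 shared cells give at these frequencies, so that negative values of pairs cannot be ranked by their size.

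The members were also read against genes that mark regions of the brain and were not among them, as the share of cells with at least 1 UMI of a list. The telencephalon and diencephalon list (11 genes, Lhx2 and Tbr1 among them) marks the forebrain, the midbrain and border list (11 genes with Pax2, Pax5, Fgf8 and Wnt1) the middle, the hindbrain list (8 genes, mainly anterior Hox genes) the territory behind it, and the trunk Hox list (16 genes) the caudal hindbrain and spinal cord. An eye field list (5 genes with Rax and Six6) was found in 34.6% of Six3 cells, 41.2% of Fezf2 cells and 12.9% of Gbx2 cells. It was found in 35.6% of the 90 cells with Emx2 and Emx1 and in 35.3% of the 102 with Emx2 and no Emx1. The list was therefore not particular to Six3 cells. Cells with Fezf2 or Emx1 carried the forebrain list in 97.8% and 96.9%, against 36.9% and 37.3% of cells without them. Emx2 (84.9%), Six3 (83.5%) and Otx1 (71.3%) followed, Otx2 stood at 52.5% against 39.4%, and En1, En2 and Gbx2 were low at 8.57%, 16.8% and 17.6%. Among single genes, Tbr1, a factor of early cortical neurons, was found in 29.7% of Emx1 cells against 2.38% of cells without Emx1. Eomes, a factor of intermediate progenitors of the cortex, was found in 29.7% of Emx1 cells against 1.88%, and the hypothalamic factor Nkx2-1 in 20.9% of Six3 cells against 4.14%.

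**Figure D4:**
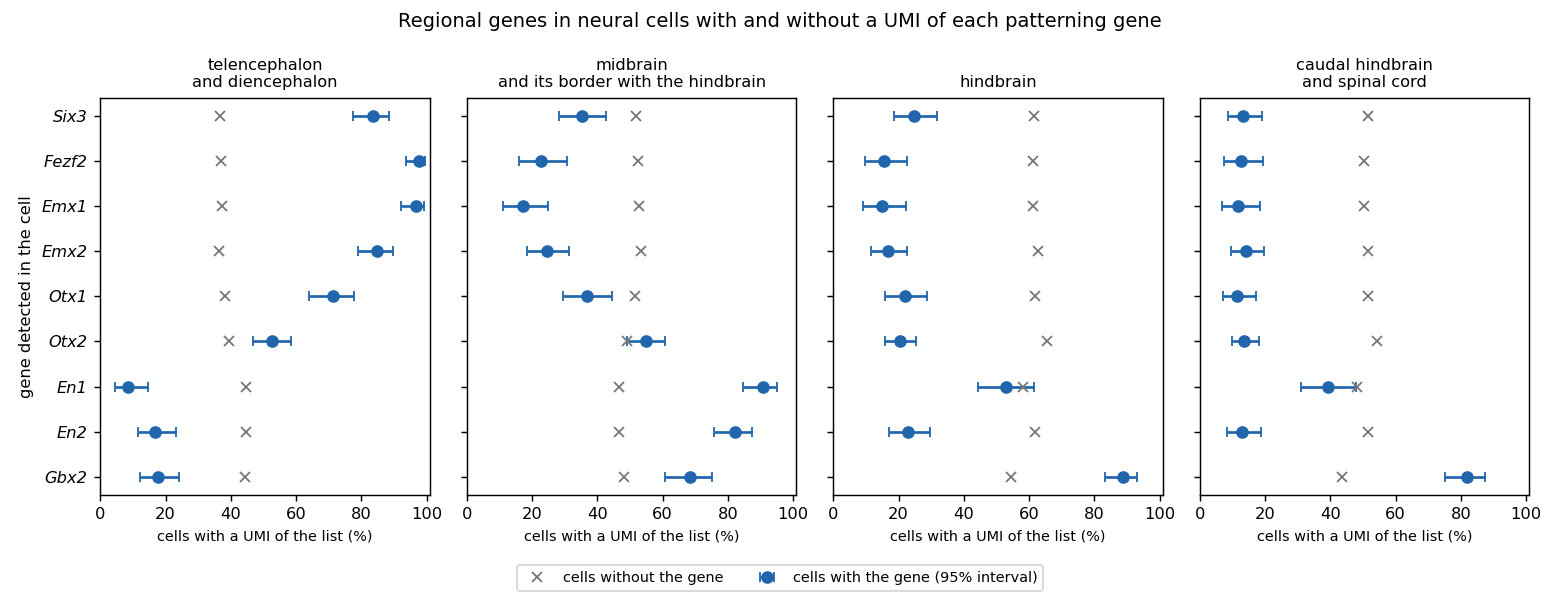
Percent of neural cells with at least 1 UMI of a regional gene list, among cells with a UMI of each member (blue points with exact 95% binomial intervals, counting error only) and among cells without it (grey crosses). Six3, Fezf2, Emx1 and Emx2 sit at 83.5% to 97.8% in the first panel, En1 and En2 at 90.7% and 82.1% in the second, and Gbx2 alone lies right of its cross in the hindbrain and caudal panels.

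The midbrain and border list was found in 90.7% of En1 cells, 82.1% of En2 cells and 68.2% of Gbx2 cells, against 46.5% to 48.2% of cells without them, and in 17.2% of Emx1 cells. The hindbrain list was found in 88.8% of Gbx2 cells against 54.3% of the others, in 52.9% of En1 cells and in 14.8% to 24.7% of cells with the other members. Trunk Hox genes were found in 81.8% of Gbx2 cells against 43.7% of cells without it. For En1 the share was 39.3% and for the remaining members it ran from 20 of 174 cells for Otx1 to 14.1% for Emx2. Gbx2 cells carried trunk Hox genes in each type that held them, in 86.0% of its cells in CNS Neuron, 81.2% in Neuronal Progenitor and 79.4% in Neuroectoderm/Glia. Hoxb3 was found in 80.6% of Gbx2 cells against 36.9% of cells without it, and in 4.41% of Otx2 cells against 48.8%. Most Gbx2 cells thus held Hox genes, and few Otx2 cells did.

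The genes most like each member were taken as the 5 with the highest phi among 13068 genes, with phi above 0 in every suspension. For Six3 they were Six6 (0.41), Rax (0.34), Fzd5 (0.32), Dlx5 (0.30) and Dlx2 (0.26), and 36 of the 38 neural cells with Six6, its paralog in eye and hypothalamus, also held Six3. Emx1, Emx2 and Fezf2 named each other first, and then Dmrt3 (0.48 with Emx1), Dmrta2 (0.47 with Emx1), and Lhx2 (0.42 with Fezf2 and with Emx1), all of them factors of the telencephalon. For Otx2 the list held Tal2 (0.37), a factor of midbrain GABAergic neurons, Stx3 (0.34), Otx1, Folr1 (0.31) and Lef1 (0.31), an effector of Wnt signaling, and Lef1 (0.28) and Tnfrsf19 (0.25) were also on that of Otx1 behind its fellow members.

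En1 was most like Pax5 (0.44, 83 of 203 Pax5 cells), a paired-box factor of the border, followed by En2, Cnpy1 (0.34), Foxd3 (0.27) and Otp (0.23). En2 was most like Cnpy1 (0.44, 84 of 160 cells), a modulator of Fgf signaling at the border, followed by En1, Irx2 (0.30), Irx1 (0.29) and Pax5 (0.27). For Gbx2 the genes were Pax8 (0.30), the glycine transporter gene Slc6a5 (0.29), Hoxb3 (0.26), Hoxb4 (0.26) and Hoxb2 (0.25). The Gbx2 list had no gene in common with those of En1 and En2.

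The En1 cells fell into 2 sets by whether En2 was found in them, which was chosen as a split after the values were seen and is given without a test. The 66 cells with both carried trunk Hox genes in 10.6% (95% interval 4.37 to 20.6), Fgf17 in 22.7%, Fgf8 in 15.2%, Otx2 in 25.8% and Gbx2 in 3.03%. The 74 cells with En1 and no En2 carried trunk Hox genes in 64.9% (52.9 to 75.6), Fgf17 in 1.35%, Fgf8 in 1.35%, Otx2 in 5.41% and Gbx2 in 35.1%. Pax2 (19.7% and 66.2%) and Pax8 (18.2% and 41.9%) were more frequent in the second set, and Pax5 was alike in both (60.6% and 58.1%). En1 cells without En2 thus mostly held trunk Hox genes, and Pax2 is also known from inhibitory interneurons of the spinal cord. The 113 cells with En2 and no En1 held Otx2 in 46.9% and trunk Hox genes in 14.2%. By suspension, trunk Hox genes were found in 0, 2, 1 and 4 of the 16, 15, 17 and 18 cells with both, and in 16, 12, 6 and 14 of the 22, 18, 16 and 18 cells without En2.

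The 28 cells with Gbx2 and En1 held Pax2 in 85.7%, Pax5 in 82.1%, Pax8 in 64.3% and trunk Hox genes in 78.6%, and none held Fgf8 or Fgf17, while the 142 cells with Gbx2 and no En1 held Pax2 in 32.4%, Pax5 in 9.86% and trunk Hox genes in 82.4%. The cells with Gbx2 and En1 therefore mostly held trunk Hox genes. Emx2 cells split likewise by Emx1. The 90 cells with both held Lhx2 in 96.7%, Fezf2 in 67.8%, Six3 in 3.33% and Otx2 in 4.44%, and the 102 with Emx2 and no Emx1 held Lhx2 in 43.1%, Fezf2 in 21.6%, Six3 in 29.4% and Otx2 in 47.1%. Otx1 cells split by Otx2. The 82 with Otx1 and no Otx2 held Lhx2 in 76.8%, Emx1 in 54.9% and Emx2 in 56.1%, whereas the 92 with both held Lhx2 in 21.7%, Emx1 in 7.61% and Emx2 in 26.1%. Detection depends on depth, and a cell without a UMI of the second gene may still express it.

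The comparison of founders with the F1 generation asks whether the members differ between embryos that received the transgene after fertilization and those that inherited it. Founder eggs were also electroporated with transposase mRNA, injected with donor DNA and transferred to surrogate mothers. These steps, and any difference of litter or exact stage, cannot be told apart from generation. UMIs were summed per suspension and type and tested with the quasi-likelihood test of edgeR over all genes of a type, adjusted by the Benjamini-Hochberg method, with 2 suspensions against 2. These suspensions are the only replicates, F1_mix is a mixture of embryos, and a p-value measures the spread between these 4 suspensions alone. The filter on low counts kept 40 of 117 pairs of a member and a type, and 3 of the 40 were called at an adjusted p under 0.05, against 0.752% of the 99241 pairs of any gene and a type, all in Neuronal Progenitor and all higher in founders. Without any filter on low counts 11 of 103 pairs were called, against 1.67% of the 189216 pairs of any gene and a type, and those called rose from 746 to 3154.

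In Neuronal Progenitor all 9 members were tested and 3 were called, where 0.656% of all 10668 genes were called, 0.45% higher and 0.206% lower in founders. At an unadjusted p under 0.05 there were 5 of 9 members and 12.8% of all genes. Emx1 was at 0.725 in F0_8 and 0.440 in F0_9 against 0.132 in F1_1 and 0.108 in F1_mix (log2 fold change 2.25, SE 0.28, edgeR adjusted p = 0.0198). Emx2 was at 0.714 and 0.507 against 0.193 and 0.185 (1.66, SE 0.21, edgeR adjusted p = 0.0198). Fezf2 was at 0.553 and 0.396 against 0.149 and 0.169 (1.54, SE 0.23, edgeR adjusted p = 0.0278). These 3 genes were often detected in the same neural cells (phi 0.46 to 0.53), so their calls are not separate events. For each of the 3 the founders lay above the F1 suspensions without overlap, which also held for 45% of all genes tested in this type, in either direction. Without F0_8 the calls of Emx2 (log2 1.39, edgeR adjusted p = 0.0664) and Fezf2 (1.27, edgeR adjusted p = 0.135) were lost and that of Emx1 was kept (1.84, edgeR adjusted p = 0.0385). Founders then were F0_9 alone, which that fit assumes to vary like the F1 suspensions.

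Otx2 went the other way, at 0.657 and 0.747 in founders against 1.0 and 1.04, and missed the threshold (log2 -0.58, SE 0.12, edgeR adjusted p = 0.0827), as did En2 (-0.68, edgeR adjusted p = 0.269). Six3, Otx1, En1 and Gbx2 had adjusted p-values of 0.45 to 0.773. The median of the 9 members was -0.31, against -0.01 for all genes of this type. Of the regional lists, 2 of 9 tested forebrain genes were called higher in founders, Lhx2 (1.67, edgeR adjusted p = 0.0267) and Eomes (1.61, edgeR adjusted p = 0.0332), and 0 were called lower, with a median of 0.20. In the other neural types 0 forebrain genes were called and the median was 0.36 in CNS Neuron (6 of 8 above 0), 0.40 in Neuroectoderm/Glia (7 of 8) and 0.37 in Ependymal Cell (2 of 3). Of 9 tested midbrain and border genes, 1 was called lower, Fgf8 (-1.96, edgeR adjusted p = 0.0263), 0 were called higher, and the median was -0.76, with 0 of 9 above 0. The hindbrain list (median -0.24, 1 of 7 above 0) and the trunk Hox list (-0.22, 4 of 15 above 0) had 0 genes called in this type. In Neuroectoderm/Glia the midbrain and border list had a median of 0.46, with 3 of 5 above 0 and 0 called. The hindbrain list was also below 0 in the other neural types, with 0 called. Medians were -0.46 in CNS Neuron (0 of 7 above 0), -0.38 in Neuroectoderm/Glia (1 of 7) and -0.54 in Ependymal Cell (1 of 3). Those of the trunk Hox list were 0.06, -0.04 and -0.09 in the same order. These lists overlap in function with the members and were chosen with earlier results of these data known.

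**Figure D5:**
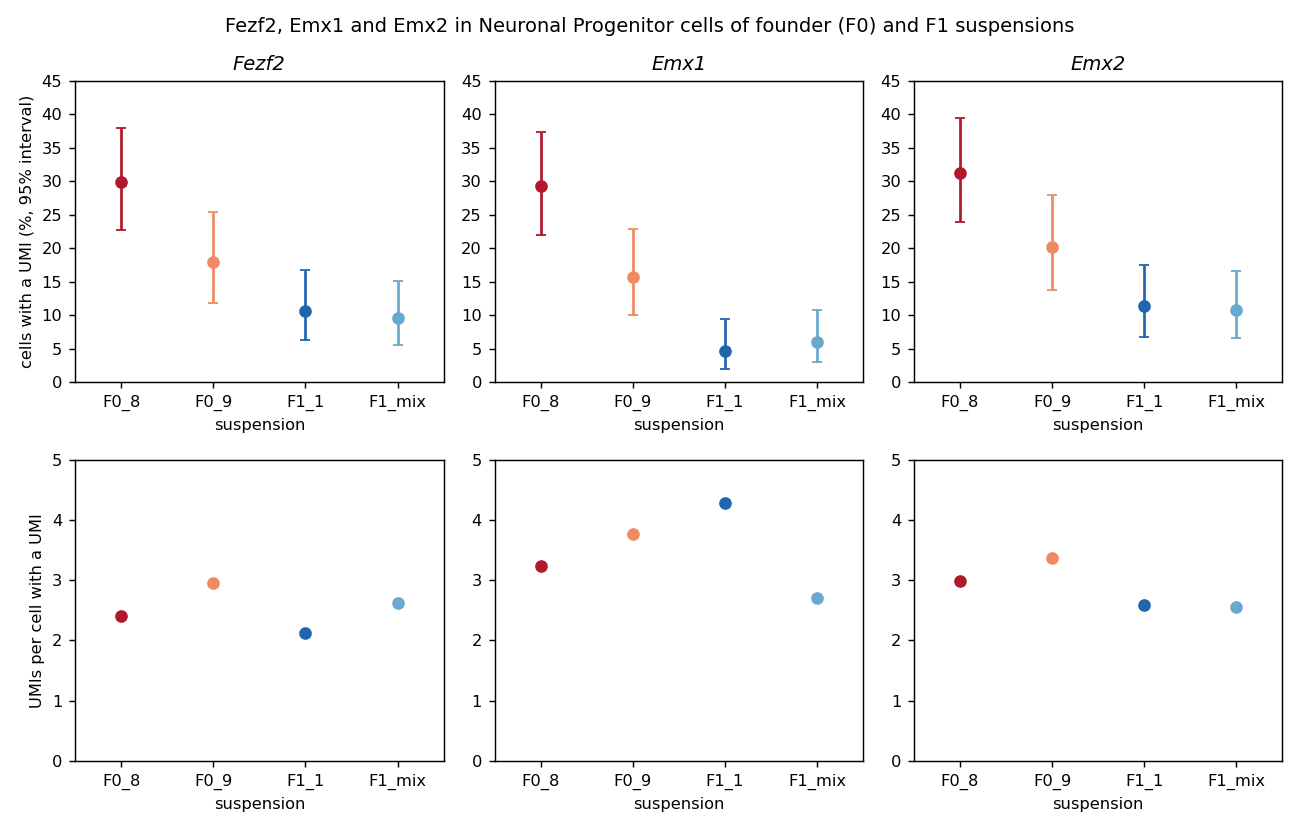
Neuronal Progenitor cells by suspension: percent of cells with a UMI of Fezf2, Emx1 or Emx2 with exact 95% binomial intervals for counting error (upper panels), and mean UMIs in the cells that held one (lower panels). F0_8 (red) has the highest share of cells for each gene, and the interval of F0_9 (orange) overlaps that of F1_mix (light blue).

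The share of cells with a UMI moved with these levels. Emx1 was found in 29.3% (95% interval 22 to 37.3) and 15.7% (9.97 to 23) of the Neuronal Progenitor cells of F0_8 and F0_9, and in 4.67% (1.90 to 9.38) and 6.02% (2.93 to 10.8) of those of F1_1 and F1_mix. Emx2 was found in 31.3% and 20.1% against 11.3% and 10.8%, and Fezf2 in 29.9% and 17.9% against 10.7% and 9.64%. The share of F0_8 was the highest each time, and the interval of F0_9 overlapped that of F1_mix for each of these genes. In the cells that held the gene, Emx1 had 3.23 and 3.76 UMIs in founders against 4.29 and 2.70, Fezf2 had 2.41 and 2.96 against 2.13 and 2.63, and Emx2 had 2.98 and 3.37 against 2.59 and 2.56. The UMIs per such cell of founders and F1 overlapped for Emx1 and Fezf2. In summed counts, fewer cells with a gene and less RNA per cell cannot be told apart. Whether the regional makeup of the Neuronal Progenitor cells differed between the embryos was not tested.

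In the other types 0 members were called. In CNS Neuron 0 of 9 were called by edgeR and 0 at an unadjusted p under 0.05, where 0.777% of all genes were called and 9.14% passed unadjusted. In Neuroectoderm/Glia 0 of 7 were called and 3 had an unadjusted p under 0.05, where 1.15% of all genes were called and 13.6% passed unadjusted: Six3 at 0.720 and 0.915 against 0.626 and 0.357, En2 at 0.167 and 0.185 against 0.293 and 0.263, and Gbx2 at 0.495 and 0.168 against 0.151 and 0.139. In Epithelial Cell 0 of 5 were called and 2 had an unadjusted p under 0.05, Six3 at 0.864 and 0.838 against 0.388 and 0.478 and Otx1 at 0.301 and 0.367 against 0.155 and 0.0988, where 0% of all genes were called and 6.67% passed unadjusted. In Mesodermal Progenitor 0 of 2 were called, where 1.07% of all genes were, and En1 alone had an unadjusted p under 0.05, as did 10% of all genes. In Ependymal Cell (0.0134% of all genes called, 6.89% unadjusted), Chondrocyte (1.16%, 10.3%), Gut Mesenchyme/Amniotic Mesoderm (1.62%, 11.9%) and Myoblast/Cardiomyocyte (0%, 9.32%), 0 of 2 tested members were called in each, and 0 at an unadjusted p under 0.05. The Wald test of DESeq2 called 3 pairs in all, those called by edgeR, and so 0 in these types. Of pairs of any gene and a type it called 429, against 746 by edgeR.

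Whether the difference between founders and F1 itself varied between the 4 neural types was tested with all suspensions and types in the same edgeR fit. The sums of the 4 types come from the same embryos, and suspension was a block in that fit. Of 9 members 0 were called, where 0.283% of 12016 genes were, and 4 had an unadjusted p under 0.05, as did 7.7% of all genes: Fezf2, Emx2, Emx1 and Six3. No other tool was run for this test, and without a filter on low counts 5 members were called, as were 517 of 16967 genes. The adjusted p was 0.269 for Fezf2, 0.302 for Emx2, 0.356 for Emx1 and 0.515 for Six3 (edgeR). Each p is joint over the differences of the other 3 types from CNS Neuron. For Fezf2 these differences of log2 fold changes were 2.37 in Neuronal Progenitor, 2.97 in Neuroectoderm/Glia and 3.48 in Ependymal Cell. For Emx1 they were 2.17, 1.67 and 1.92 in the same order of types. For Emx2 they were 0.26, -1.05 and -3.31. The larger of these differences rest on few UMIs of mostly 1 suspension. Fezf2 had 14, 1, 1 and 1 UMIs in Neuroectoderm/Glia and 16, 5, 2 and 1 in Ependymal Cell, and Emx2 had 9, 2, 6 and 35 in Ependymal Cell, all under the filter of the fits by type. A call in Neuronal Progenitor and none in CNS Neuron was therefore not shown to be a difference between these types.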

How the data were processed

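Cells of 4 suspensions were run in 1 droplet library and told apart by multiplexing oligos. The authors deposited UMI counts per feature and barcode, per the file headers from Cell Ranger 7.2.0 (the methods name 7.0.1), aligned to GRCm38 with EGFP added, and a table of cells with type, suspension and mitochondrial percent from Seurat 5. The methods name SoupX and DoubletFinder. Neither the methods nor the labels say whether the deposited counts were taken after SoupX. The 12 oligo features were kept out of library sizes. Barcodes outside the table were left out. No doublet caller was run here.

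Levels are UMIs per 10000 gene UMIs, with exact Poisson intervals, and shares have exact Clopper-Pearson intervals at 95%; both cover counting error only, and a floor is 3 counts. Sums per suspension and type (at least 20 cells in each suspension) were tested with the edgeR quasi-likelihood test (TMM, filterByExpr), adjusted by Benjamini-Hochberg over all genes of a type; the threshold was 0.05. Shares were also thinned to 5000 UMIs. Summed gene UMIs were 16052917 to 19160116 per suspension. Named genes were the 9 members, for each the 5 genes with the highest phi (found in at least 20 cells), and genes of the regional lists. Some list genes are not reported here and were dropped from the lists and the likeness ranking. The members and lists were chosen with earlier results of these data known. Alternatives were RLE and DESeq2 size factors and tests, no filter, other depth and mitochondrial limits (under 5%), and leaving out each suspension. The fits were tested on simulated data. Promoter windows come from RefSeq on GRCm38.p6, and Otx1 and En2 had none. Python 3.11.15, numpy 2.4.6, pandas 2.3.3, scipy 1.17.1, matplotlib 3.10.9, R 4.3.3, edgeR 4.0.16 and DESeq2 1.42.0 were used.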

Additional observations from a re-analysis of the deposited data

Results flagged for a closer look

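The matrices held 328 barcodes of the 4 suspensions that had no entry in the authors' table of cells, and these entered no comparison. Every member was found in them above the level that 3 counts give in their 1767171 gene UMIs, 0.0170 UMIs per 10000. The levels were 0.357 for Six3, 0.0792 for Fezf2, 0.119 for Emx1, 0.317 for Emx2, 0.0962 for Otx1, 0.306 for Otx2, 0.0453 for En1, 0.119 for En2 and 0.0736 for Gbx2. In droplets with 100 to 300 gene UMIs that belong to no suspension the same genes stood at 0.145, 0.0457, 0.0810, 0.196, 0.0862, 0.252, 0.119, 0.0953 and 0.0731, so that En1 was lower in the unlisted barcodes than in those droplets.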

How the results depend on the processing

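No log2 change or phi value that was recomputed changed sign. Thinned to 5000 gene UMIs, the shares of cells turned their order between Neuronal Progenitor and CNS Neuron for Gbx2 (5.26% and 6.60%), between Neuroectoderm/Glia and CNS Neuron for Emx1 (2.66% and 2.72%), between Neuronal Progenitor and Neuroectoderm/Glia for Six3 (7.81% and 8.18%) and between Neuronal Progenitor and Ependymal Cell for Otx1 (7.47% and 8.15%). The count of members called between founders and F1 was 3 with RLE size factors, with the DESeq2 test and with cells under 5% mitochondrial UMIs, 11 without a filter on low counts, and 1 to 7 when each suspension was left out, the 1 without F0_8. The genes called over all types moved too, from 746 to 3154 without the filter, 511 without F0_8 and 1422 to 1585 without each of the others. Genes called over all types numbered 736 with RLE size factors, 429 with the DESeq2 test and 619 with cells under 5% mitochondrial UMIs. A group left with 1 suspension is assumed to vary like the other group. The log2 changes in Neuronal Progenitor then ranged over 1.84 to 2.56 for Emx1, 1.39 to 1.88 for Emx2 and 1.27 to 1.76 for Fezf2. The members called in the test between types numbered 0 with RLE size factors, 5 without the filter and 0 to 1 with a suspension left out, the 1 without F1_1, where the genes called were 34 in the fit reported, 517 without the filter and 15 to 46 with a suspension left out. The count of members highest in a neural type was 5 in cells of at least 5000 gene UMIs, 6 to 8 with a suspension left out, and 9 in types with a median of at least 5000, where leaving out a suspension gave 7 to 9, both alternatives chosen after seeing the data. The count of pairs with a share above Erythroblast was 15 when cells were thinned to 2000 gene UMIs and 16 to 23 with a suspension left out. For the pairs of members found together in every suspension the count was 13 to 17 over all alternatives. The causes were not tested. No paired analysis was possible because the labels give the suspensions of founders and F1 no shared replicate numbers. Depth limits each absence above: a cell without a UMI may express the gene.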
